A study of Mus musculus with 29 samples.

Results

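The 10 genes of the piRNA pathway described here were followed in mouse ovaries of 2 genotypes at 4 ages: Piwil1, Piwil2, Piwil4, Mov10l1, Tdrd9, Tdrd1, Tdrd6, Tdrd7, Tdrkh and Mael. They were chosen by name, as PIWI proteins and proteins known to work with them, and all 10 were found among the 51912 gene IDs of the count table. The study sequenced RNA in bulk from dissociated whole ovaries and asked how cell cycle regulation by p27Kip1, the protein encoded by Cdkn1b, bears on ovarian development. Wild-type (Cdkn1b +/+) and null (Cdkn1b -/-) ovaries were taken before birth on the embryonic days named E13.5 and E18.5, on the 8th day after birth (PND8) and from adults of 12 weeks (12wk). Every wild-type group had 4 samples. The null groups had 4 at E18.5 and 3 at each other age, so that 8 groups held 29 samples. The labels name no Cre line or promoter, so the null allele is taken to be present in germ cells and somatic cells alike. The labels give no strain and do not say which samples came from separate animals, so p-values measure only the spread between these samples, which may in part be technical.

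PIWI proteins are Argonaute proteins of the germ line that carry small guide RNAs, the piRNAs, and with them silence transposons by cutting their transcripts and by directing DNA methylation. Helicases such as MOV10L1 feed precursor transcripts into piRNA production, and Tudor domain proteins bind methylated arginines on PIWI proteins and gather them in germ granules. The pathway is best known from the testis, where loss of most of these genes blocks spermatogenesis, while female mice lacking them are generally fertile. In the fetal ovary, germ cells enter meiosis together and arrest as oocytes around birth, and after birth oocytes sit in follicles surrounded by a growing mass of somatic cells.

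Total counts per library ran from 14.1 to 48.2 M. Fetal libraries held 14.1 to 24.9 M and those of PND8 and 12wk 24.1 to 48.2 M, so depth went with age. The file headers speak of combined sequencing data and assign no sample to a part. The labels name no batch, so a batch that follows age cannot be told apart from age in any step below. A level is given below as CPM, counts per 1000000 counts of the library, on library sizes scaled by TMM over all 29 samples, and 3 counts in a library, 0.0622 to 0.213 CPM, were taken as the least that the depth can show. Cdkn1b itself was lower in every null library than in any wild-type library of its age, with means over the ages in order of 4.49, 12.7, 71.7 and 51.2 CPM against 22.8, 103, 148.5 and 183.3 CPM, and did not pass the test at 12wk (edgeR quasi-likelihood, adjusted p 0.211). The germ cell genes Ddx4 and Dazl were present at every age, at 112.1 and 206.5 CPM in wild type at E13.5 and 0.511 and 0.756 CPM at 12wk, and granulosa markers were present in all libraries. Globin genes summed to 202397 CPM in 1 wild-type library of E13.5 (replicate 3) and to 6381 to 10130 CPM in its group's remaining 3. Since RNA came from whole ovaries, fewer germ cells and less RNA per germ cell cannot be told apart in any value below. Nor can RNA of germ cells be told from RNA of other ovarian cells.

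The promoters of 8 members were in the RefSeq table (GRCm38.p6), each entry running from 250 bases before to 50 bases after an annotated start site. They are shown because 6 of the members' 13 entries, from 5 of the 8 genes, hold the E-box CACGTG, which reads the same on both strands. Of 32851 promoter entries of the same length, 7.15% hold it. The promoters of Mael, Mov10l1, Tdrd9, Tdrd1 and Piwil1 are given with the E-box in capitals, and Tdrkh is given as a member without it that also fell with age.
Mael, chr1:166238695-166238994, minus strand: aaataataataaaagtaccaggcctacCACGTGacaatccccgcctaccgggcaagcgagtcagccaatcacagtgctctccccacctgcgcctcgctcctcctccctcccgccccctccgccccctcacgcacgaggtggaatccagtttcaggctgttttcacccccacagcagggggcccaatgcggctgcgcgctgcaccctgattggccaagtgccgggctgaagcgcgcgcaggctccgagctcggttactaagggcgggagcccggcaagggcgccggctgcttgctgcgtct
Mov10l1, chr15:88982744-88983043, plus strand: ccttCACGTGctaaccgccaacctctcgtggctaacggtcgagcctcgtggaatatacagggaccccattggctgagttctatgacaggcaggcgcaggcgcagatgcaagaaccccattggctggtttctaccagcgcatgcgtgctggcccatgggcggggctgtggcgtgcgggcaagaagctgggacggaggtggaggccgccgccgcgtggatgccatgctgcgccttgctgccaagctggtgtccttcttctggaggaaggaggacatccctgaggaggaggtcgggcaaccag
Tdrd9, chr12:111971309-111971608, plus strand: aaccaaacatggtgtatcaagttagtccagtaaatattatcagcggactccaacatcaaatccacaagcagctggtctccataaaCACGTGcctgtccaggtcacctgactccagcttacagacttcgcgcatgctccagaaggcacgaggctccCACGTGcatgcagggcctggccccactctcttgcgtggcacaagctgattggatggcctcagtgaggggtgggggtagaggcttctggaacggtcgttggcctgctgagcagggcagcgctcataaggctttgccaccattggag
Tdrd1, chr19:56825959-56826258, plus strand: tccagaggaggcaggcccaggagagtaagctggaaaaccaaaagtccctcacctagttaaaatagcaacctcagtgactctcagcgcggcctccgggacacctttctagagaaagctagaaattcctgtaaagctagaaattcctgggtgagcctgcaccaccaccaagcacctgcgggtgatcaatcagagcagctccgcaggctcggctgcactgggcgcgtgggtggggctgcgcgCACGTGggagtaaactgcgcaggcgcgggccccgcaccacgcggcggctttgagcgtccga
Piwil1, chr5:128735996-128736295, plus strand: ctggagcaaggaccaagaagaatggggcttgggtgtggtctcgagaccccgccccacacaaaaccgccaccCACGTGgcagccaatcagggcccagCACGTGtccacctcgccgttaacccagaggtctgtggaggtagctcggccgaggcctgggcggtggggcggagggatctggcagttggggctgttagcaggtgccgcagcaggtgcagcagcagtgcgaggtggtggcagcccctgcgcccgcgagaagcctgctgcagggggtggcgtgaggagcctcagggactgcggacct
Tdrkh, chr3:94412994-94413293, plus strand: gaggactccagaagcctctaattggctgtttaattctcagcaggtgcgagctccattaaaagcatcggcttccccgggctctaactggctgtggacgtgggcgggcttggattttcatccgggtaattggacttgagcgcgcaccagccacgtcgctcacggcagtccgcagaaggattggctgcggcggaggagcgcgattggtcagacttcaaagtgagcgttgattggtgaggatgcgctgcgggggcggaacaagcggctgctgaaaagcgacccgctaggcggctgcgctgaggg
The E-box began 223 bases before the start in Mael and 246 before it in Mov10l1, while Tdrd9 held it at 165 and 95 and Piwil1 at 179 and 154 bases before the start. In Tdrd1 it lay 11 bases before the start printed here and 77 before a downstream start, and a further entry did not hold it. The former entries of Tdrd1 overlap, so a single site is counted in both. Neither Piwil4 nor Tdrd7 held it in any entry. The motif GCGGGAA, searched on both strands, was in none of the 8 promoters and in 4.6% of all entries. These are matches of letters, and no binding was measured.

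**Figure D1:**
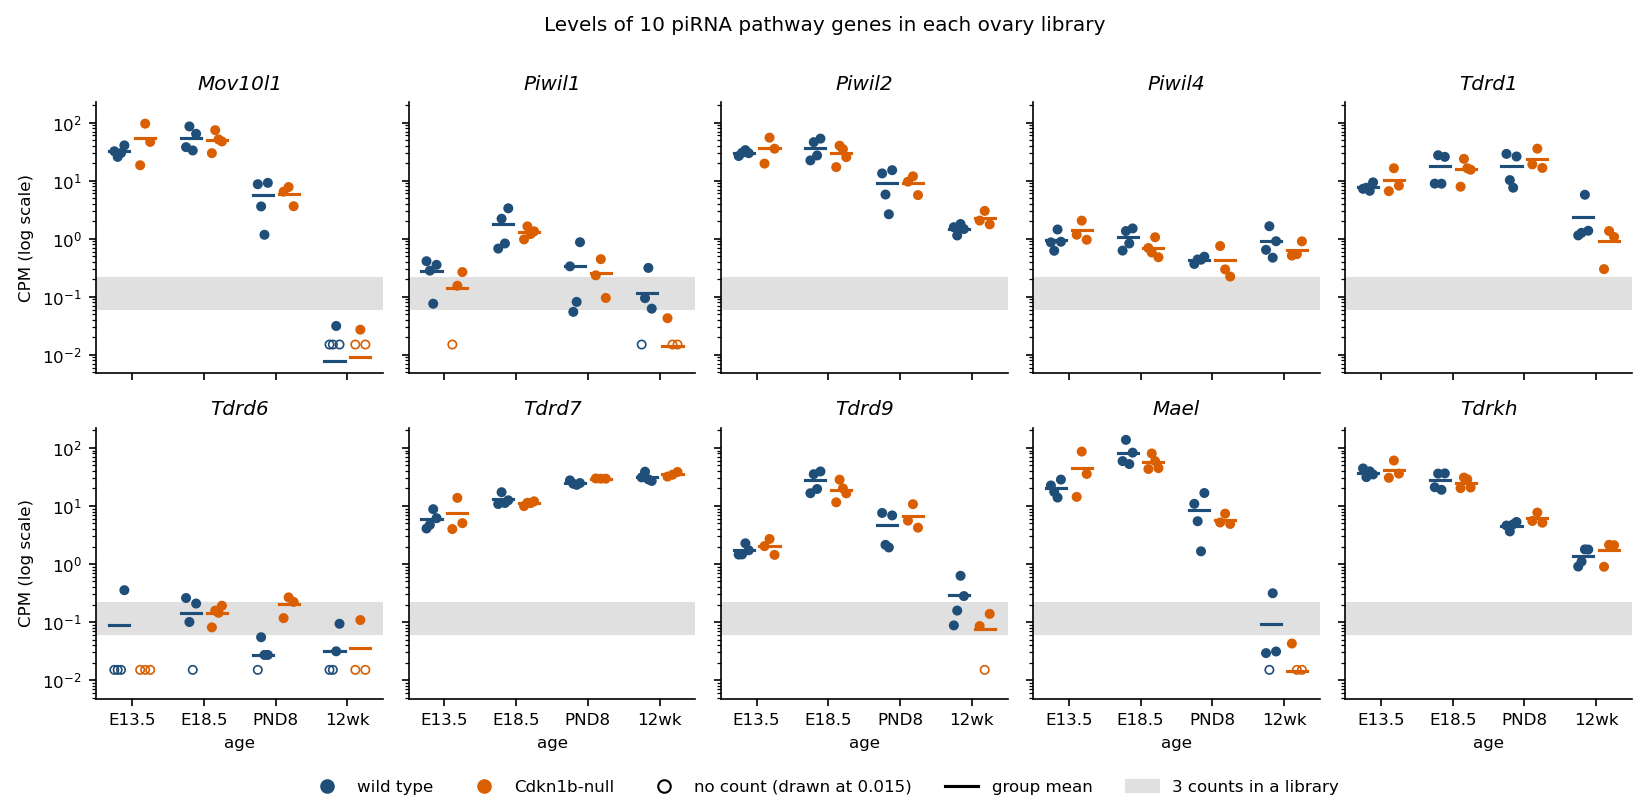
CPM on a log scale (vertical axis) of the 10 genes in each of the 29 libraries, by age and genotype; lines are group means, open circles are libraries with no count and the grey band is the level of 3 counts in a library. Mov10l1 and Mael fell from 29.7 CPM or more in each library at E18.5 to at most 1 count per library at 12wk. The exception was Mael in 12wk wild-type replicate 3, with 10 counts. Tdrd7 rose with age.

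In wild-type ovaries the 10 genes did not share one course. Compared per kilobase of exon, Mael stood first at E13.5 (11.9 ± 3.64 CPM per kb, SD, n = 4) and E18.5 (47.9 ± 22.2), and at E18.5 no other member's libraries overlapped it. Mov10l1 and Piwil2 followed at E18.5 with 13.2 ± 5.86 and 7.00 ± 2.77 CPM per kb, and their libraries overlapped each other. At 12wk Tdrd7 was alone at the top with 7.92 ± 1.33 CPM per kb, and the next gene, Tdrd1, was at 0.435 ± 0.409. From place 2 to place 10 at 12wk each gene overlapped its neighbour, and Mov10l1 was last. Mean levels were highest at E18.5 for Mov10l1, Piwil1, Piwil2, Piwil4, Tdrd6, Tdrd9 and Mael, at E13.5 for Tdrkh, at PND8 for Tdrd1 and at 12wk for Tdrd7. This is an order of means only. The mean of Tdrd6 was at or under 3 counts per library at each age. Fetal libraries overlapped for Mov10l1, Piwil2, Piwil4 and Tdrkh, those of E18.5 and PND8 for Piwil1, and those of PND8 and 12wk for Tdrd7. Tdrd1 read 18.1 CPM at PND8 and 17.7 at E18.5, with overlap.

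Between E13.5 and E18.5 in wild type, 5 of the 9 members tested rose and 0 fell, where 34% of all 16603 genes were called, 16.6% higher and 17.5% lower (edgeR quasi-likelihood test, adjusted p under 0.05 by the Benjamini-Hochberg (BH) method). From E18.5 to PND8, 7 of 9 fell and 1 rose, against a background of 74.6% called, 37.6% higher and 36.9% lower. From PND8 to 12wk, 6 of 8 fell and 1 rose, against 30.5% called, 16.1% higher and 14.3% lower. In that last step 14 of 20 growing oocyte markers fell and 0 rose, with a median log2 fold change of -3.07. Of 7 germ cell markers 4 fell and 0 rose, with a median of -1.82. The part of either list in the members' falls was not tested. The median log2 fold changes of the members tested were 1.12, -2.48 and -2.71, and those of all genes tested were 0.01, 0.01 and -0.01. Steps that follow each other share the group between them, so they are not independent.

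The PIWI proteins differed from each other in level and in course. Piwil2 (chromosome 14, 70372477 to 70429383, minus strand, as GENCODE M21 places it on GRCm38) encodes MILI, the PIWI protein that starts the amplification cycle of piRNAs. It was the PIWI gene with the highest mean level per kilobase in all 8 groups. In wild type at 12wk its libraries overlapped those of Piwil4 (0.214 to 0.338 against 0.087 to 0.304 CPM per kb). The wild-type libraries of Piwil2 read 26.5, 30.1, 33.5 and 29.6 CPM at E13.5, 22.3, 45.9, 27.1 and 52.8 at E18.5, 13.3, 5.75, 2.63 and 15.1 at PND8, and 1.57, 1.13, 1.78 and 1.46 at 12wk. The fetal ages overlapped, and both later ages lay wholly below the one before. The gene fell by 2.10 on the log2 scale from E18.5 to PND8 (SE 0.52, edgeR quasi-likelihood test, BH-adjusted p 0.0042) and by 2.55 from PND8 to 12wk (SE 0.53, adjusted p 0.00705). Between the fetal ages its log2 fold change was 0.30 (SE 0.26, adjusted p 0.408). Null ovaries also had lower Piwil2 at both later steps, by log2 fold changes of -1.75 (SE 0.34, adjusted p 0.00159) and -1.90 (SE 0.34, adjusted p 0.00713).

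Piwil1 (chromosome 5, 128702524 to 128755474, plus strand), which encodes MIWI, the PIWI protein of late meiotic and postmeiotic male germ cells, was low but not absent. In wild type it read 0.408, 0.281, 0.0757 and 0.354 CPM at E13.5 and 0.674, 2.20, 0.826 and 3.33 CPM at E18.5, where the libraries held 13, 44, 17 and 80 counts. All E18.5 libraries lay above all E13.5 libraries, and the gene rose by 2.57 on the log2 scale (SE 0.65, edgeR quasi-likelihood test, BH-adjusted p 0.0113). At PND8 the values were 0.333, 0.0548, 0.0814 and 0.868 CPM, from 10, 2, 3 and 32 counts. The groups overlapped, and the fall of 2.48 on the log2 scale (SE 0.81, adjusted p 0.0176) rested in part on single libraries: without E18.5 wild-type replicate 4 the log2 fold change was -1.95 (adjusted p 0.062), and without PND8 wild-type replicate 4 it was -3.55. In null ovaries the level ran from 0 to 0.266 CPM at E13.5, from 0, 4 and 5 counts, a mean at or under the level of 3 counts per library, and from 0.972 to 1.63 CPM at E18.5, a log2 fold change of 3.10 (SE 0.69, adjusted p 0.00944), and 3.77 without E13.5 null replicate 4. It then fell by 2.35 to PND8 (SE 0.51, adjusted p 0.00181).

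Piwil4, which encodes MIWI2, the nuclear PIWI protein that directs methylation of transposons in fetal male germ cells, stayed between 0.222 and 2.04 CPM in every library. Wild-type libraries read 0.862, 0.618, 1.44 and 0.884 CPM at E13.5, 0.623, 1.35, 0.826 and 1.5 at E18.5, 0.366, 0.438, 0.434 and 0.488 at PND8, and 0.642, 1.64, 0.470 and 0.902 at 12wk. The PND8 libraries lay below all E18.5 libraries, and the gene fell by 1.41 on the log2 scale (SE 0.37, edgeR quasi-likelihood test, BH-adjusted p 0.0058). The PND8 to 12wk difference was 1.16 (SE 0.42, adjusted p 0.0643), and 1.38 without 12wk wild-type replicate 3 (adjusted p 0.0297). In null ovaries none of the 3 steps passed. Their log2 fold changes were -0.99, -0.76 and 0.71, and the adjusted p-values 0.123, 0.2 and 0.402. The middle one was -1.46 (adjusted p 0.0416) without PND8 null replicate 1, which read 0.747 CPM against 0.295 and 0.222 in the other 2. Piwil4 (chromosome 9, 14696230 to 14740733, minus strand) shares 137 exonic bases with the antisense gene Gm10706, whose level was at most 0.0622 CPM in any library.

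Mov10l1 (chromosome 15, 88982909 to 89055152, plus strand) encodes the germ line RNA helicase that starts piRNA processing. Wild-type libraries read 32.0, 25.6, 29.8 and 40.4 CPM at E13.5, 37.7, 85.7, 33.0 and 64.0 at E18.5, and 8.66, 3.59, 1.17 and 9.14 at PND8. At 12wk the 4 libraries held 1 count in all, in replicate 3. Each age after birth lay wholly below the one before. The E13.5 to E18.5 difference was 0.78 on the log2 scale (SE 0.29, edgeR quasi-likelihood test, BH-adjusted p 0.0637) with overlapping groups, and it passed with DESeq2 (0.77, adjusted p 0.0416) and without E18.5 wild-type replicate 1 or 3. The gene fell by 3.39 to PND8 (SE 0.61, adjusted p 0.000652). From PND8 to 12wk it fell again (adjusted p 0.000653). The ratio of PND8 to 12wk, from 771 counts against 1, was 670.3, with a 95% interval of 119.9 to 26507 that covers counting error only. Null ovaries gave 652 counts at PND8 and 1 at 12wk, a ratio of 509.9 (95% interval 91.2 to 20171), after a fall of 3.14 from E18.5 (SE 0.38, adjusted p 0.00012).

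Tdrd9 (chromosome 12, 111971559 to 112068854, plus strand), a Tudor domain helicase that acts with MIWI2, had the largest fetal rise of the 9 members tested. Wild-type libraries read 1.45, 1.46, 2.27 and 1.72 CPM at E13.5 and 16.6, 35.2, 19.6 and 39.3 CPM at E18.5. All E18.5 libraries lay above all E13.5 libraries, and the log2 fold change was 4.00 (SE 0.34, edgeR quasi-likelihood test, BH-adjusted p 3.57e-05). PND8 libraries read 7.56, 2.14, 1.93 and 6.87 CPM, a fall of 2.68 (SE 0.50, adjusted p 0.000692), and 12wk libraries 0.0875, 0.158, 0.626 and 0.280 CPM, a fall of 3.92 (SE 0.72, adjusted p 0.00414). The last value was -4.62 without 12wk wild-type replicate 3, which read highest. In null ovaries Tdrd9 rose from 2.03, 2.70 and 1.44 CPM to 11.5, 28.3, 20.1 and 16.5 CPM, a log2 fold change of 3.21 (SE 0.36, adjusted p 0.000466), and fell by 1.53 to PND8 (SE 0.39, adjusted p 0.00614). The 3 null libraries of 12wk held 6 counts in all, at the limit of depth, against 735 at PND8 (adjusted p 0.00269).

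Mael (chromosome 1, 166201201 to 166238747, minus strand) encodes maelstrom, a germ granule protein needed for transposon silencing. Wild-type libraries read 22.5, 17.4, 13.9 and 28.4 CPM at E13.5 and 59.2, 137.4, 52.7 and 82.7 CPM at E18.5. All E18.5 libraries exceeded all E13.5 libraries, a rise of 2.01 on the log2 scale (SE 0.33, edgeR quasi-likelihood test, BH-adjusted p 0.00119). At PND8 they read 10.9, 5.45, 1.65 and 16.7 CPM, a fall of 3.36 (SE 0.64, adjusted p 0.00104). At 12wk they held 1, 0, 10 and 1 counts, a fall of 6.42 (SE 1.04, adjusted p 0.0025). Without replicate 3, which held 10 of the 12 counts, the remaining 3 libraries were under 3 counts each, and the ratio of PND8 to 12wk, from 1201 counts against 2, was 390.6 (95% interval 107.9 to 3229, counting error only). Null ovaries read 14.3, 86.4 and 35.5 CPM at E13.5 and 43.2, 80, 59.1 and 44.8 at E18.5. Those null groups overlapped, with a log2 fold change of 0.33 (SE 0.56, adjusted p 0.706), and 1.17 without E13.5 null replicate 3 (adjusted p 0.0861). The null level then fell by 3.34 to PND8 (SE 0.27, adjusted p 4.16e-06), and from PND8 to 12wk, where 1 count remained over the 3 libraries, the ratio was 488.8 (95% interval 87.4 to 19337, counting error only).

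Among the Tudor domain genes, Tdrd1 (chromosome 19, 56826209 to 56870012, plus strand) encodes a partner of MILI in germ granules, and its step across birth did not pass the test. Wild-type libraries read 7.21, 7.53, 6.66 and 9.32 CPM at E13.5, 8.87, 27.3, 8.84 and 25.7 at E18.5, 28.8, 10.2, 7.54 and 26.0 at PND8, and 1.14, 1.26, 5.70 and 1.37 at 12wk. At both middle ages the libraries formed a high and a low pair. The fetal rise of 1.20 on the log2 scale (SE 0.39, edgeR quasi-likelihood test, BH-adjusted p 0.0367) came with overlapping groups and, with each library left out in turn, it passed in 2 of 8 fits. Its adjusted p was 0.0862, 0.0772, 0.0665 and 0.0512 without E13.5 wild-type replicate 1, 2, 3 or 4, and 0.111 and 0.108 without E18.5 wild-type replicate 2 or 4. Across birth the log2 fold change was -0.06 (SE 0.53, adjusted p 0.924) in wild type and 0.53 (SE 0.40, adjusted p 0.251) in null ovaries. From PND8 to 12wk Tdrd1 fell by 2.87 in wild type (SE 0.67, adjusted p 0.0125) and by 4.57 in null ovaries (SE 0.55, adjusted p 0.00248). The wild-type fall was 3.77 without 12wk replicate 3, and its adjusted p was 0.0565 with no filter on low counts.

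Tdrd7 (chromosome 4, 45965334 to 46034761, plus strand), which encodes a germ granule protein that is also expressed in the lens and other tissues, was the member that rose at each step in wild type. Its libraries read 4.08, 4.72, 8.78 and 6.14 CPM at E13.5, 10.8, 17.2, 11.2 and 12.5 at E18.5, 27.6, 24.1, 23.1 and 24.8 at PND8, and 31.0, 38.9, 28.6 and 26.9 at 12wk. Each age lay wholly above the one before up to PND8 on this scale. The log2 fold changes were 1.12 (SE 0.29, edgeR quasi-likelihood test, BH-adjusted p 0.0133), 0.85 (SE 0.18, adjusted p 0.00133) and 0.42 (SE 0.13, adjusted p 0.0363). The last step had an adjusted p of 0.361 with all 8 groups in 1 fit. It also missed the threshold without PND8 wild-type replicate 2, 3 or 4 (adjusted p 0.0951, 0.0936 and 0.083) and without 12wk wild-type replicate 1 or 2 (0.0625 and 0.0548). In null ovaries the fetal step was 0.54 (SE 0.38, adjusted p 0.317), and 1.29 without E13.5 null replicate 3 (adjusted p 0.0039). The step to PND8 was a rise of 1.36 (SE 0.11, adjusted p 1.63e-06), and that to 12wk was 0.34 (SE 0.11, adjusted p 0.0542).

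Tdrkh (chromosome 3, 94413273 to 94434668, plus strand) encodes a mitochondrial Tudor and KH domain protein that takes part in trimming piRNA ends. Wild-type libraries read 44.2, 31.4, 39.4 and 34.9 CPM at E13.5, 21.0, 36.0, 18.9 and 36.4 at E18.5, 4.60, 3.64, 4.83 and 5.29 at PND8, and 0.904, 1.10, 1.78 and 1.77 at 12wk. The fetal groups overlapped (log2 fold change -0.43, SE 0.24, edgeR quasi-likelihood test, BH-adjusted p 0.196), and both later steps were falls without overlap, of 2.71 (SE 0.26, adjusted p 6.22e-06) and 1.63 (SE 0.28, adjusted p 0.00316). In null ovaries the fetal change was -0.75 (SE 0.25, adjusted p 0.0511). Replicate numbers were taken to pair the samples in that comparison, on correlations of 0.183 to 0.214. If they do, the value with the replicate block was -0.82 (adjusted p 0.00816). Without the block the change was -0.78 with RLE size factors (adjusted p 0.0435), with DESeq2 (0.0117) and with all 8 groups in 1 fit (0.0424). With each library left out in turn it passed in 1 of 7 fits, without E13.5 null replicate 1 (-0.95, adjusted p 0.0224). Null Tdrkh fell by 2.09 to PND8 (SE 0.21, adjusted p 8.55e-06) and by 1.73 to 12wk (SE 0.39, adjusted p 0.0161), the latter missing the threshold without PND8 null replicate 3 (-1.55, adjusted p 0.0696). Tdrkh shares 2255 exonic bases with Oaz3 on the other strand and 65.5% of its values were not whole numbers, so its level is uncertain. Oaz3 itself read at most 2.54 CPM, and its highest group mean was 1.73 CPM in wild type at E18.5.

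Tdrd6 (chromosome 17, 43615335 to 43630299, minus strand), which encodes a large Tudor protein of male germ granules, was not detected above the depth in most libraries. Its summed counts per group ran from 0 in the 3 null libraries of E13.5 to 21 in those of PND8. Single libraries read from 0 to 0.354 CPM, and the gene passed the filter on low counts in none of the comparisons, so no change is given for it.

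**Figure D2:**
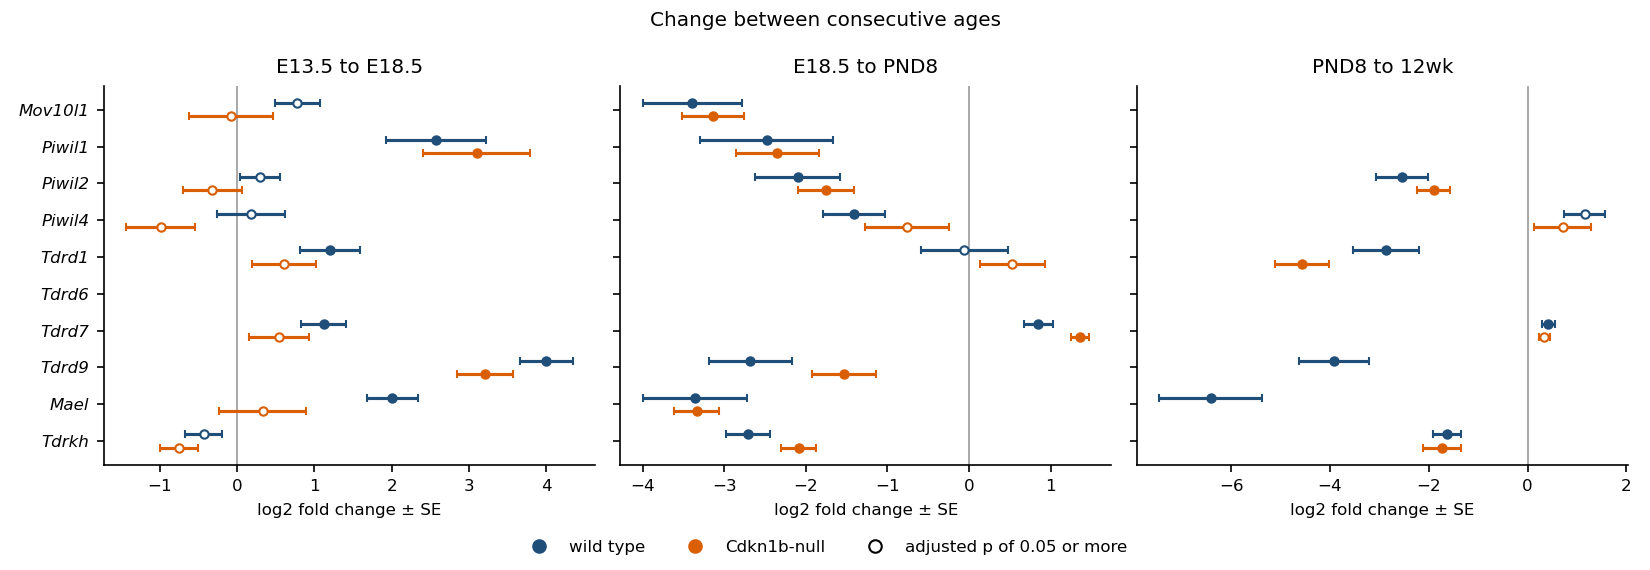
Log2 fold change with its standard error (horizontal axis) between consecutive ages for each gene, in wild type and in null ovaries; open symbols have an adjusted p of 0.05 or more, genes not tested and steps into a group at or under 3 counts per library are left out. Tdrd9 and Piwil1 rose before birth in both genotypes, and Tdrd7 was the only gene with a called rise into PND8 in either genotype.

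The null ovaries ran through the same steps with 2 of 9 members called between E13.5 and E18.5 (2 higher, background 30.2%, 15.8% higher and 14.5% lower), 7 of 9 between E18.5 and PND8 (1 higher and 6 lower, background 77.4%, 38.9% higher and 38.5% lower) and 6 of 8 between PND8 and 12wk (all lower, background 29.1%, 14.8% higher and 14.3% lower). In the last of these steps 20 of 20 growing oocyte markers fell in null ovaries, with a median log2 fold change of -5.94. Of 7 germ cell markers 4 fell and 0 rose, with a median of -3.71. Of the members called in wild type before birth, Tdrd1, Tdrd7 and Mael did not pass in null ovaries. Whether those steps differ between genotypes is asked by the interaction. The genotype effect on Mael differed between E18.5 and E13.5 by -1.72 on the log2 scale (SE 0.74, edgeR quasi-likelihood, unadjusted p 0.0293), which did not pass adjustment over all genes (BH-adjusted p 0.371). For Tdrd7 that difference was -0.63 (SE 0.39, adjusted p 0.586) and for Tdrd1 -0.63 (SE 0.78, adjusted p 0.836). For Tdrd9, whose null libraries held 6 counts at 12wk, the effect at 12wk less that at PND8 was -2.56 (SE 1.02, unadjusted p 0.0187, adjusted p 0.481). Over all 4 ages, 0 of 9 members passed the interaction test, where 0.806% of genes did. An unadjusted p under 0.05 was found for 0 members and 12.7% of all genes, and DESeq2 called 0 members.

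**Figure D3:**
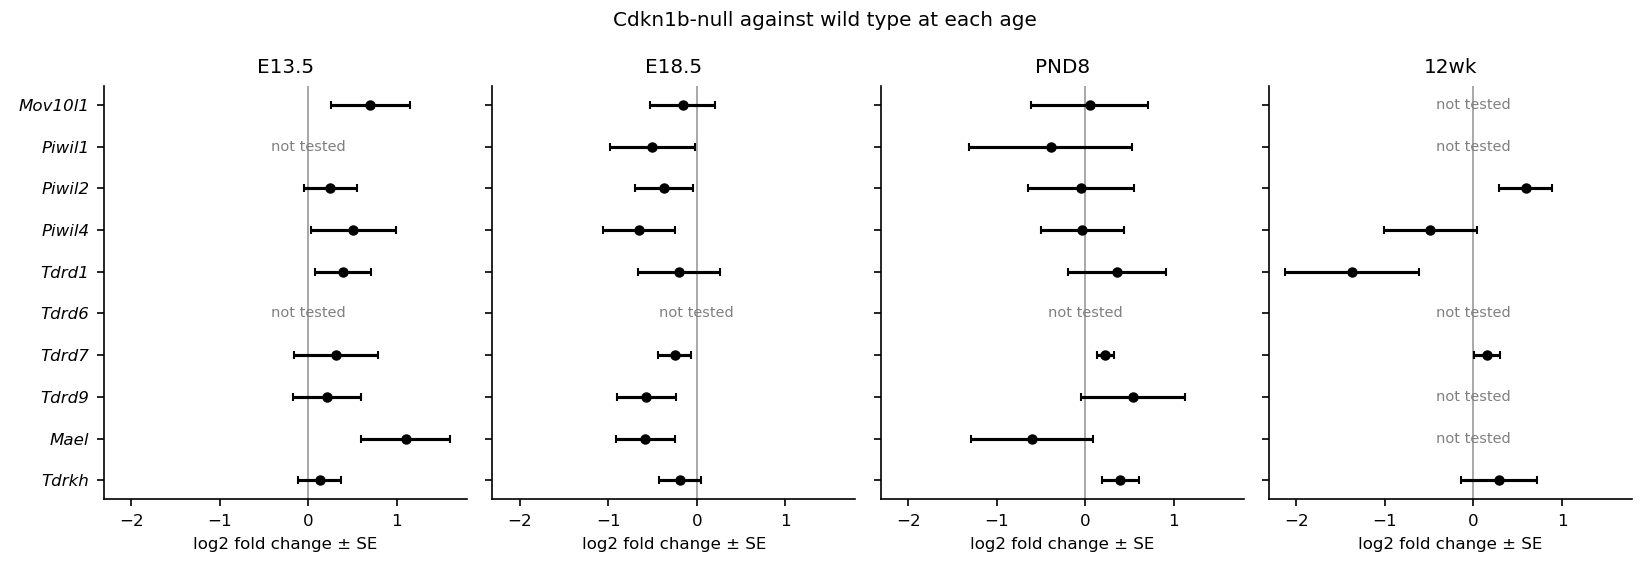
Log2 fold change of null against wild type with its standard error (horizontal axis) for each gene at each age; genes under the filter are marked as not tested. The 8 genes tested at E13.5 lay above 0 and the 9 tested at E18.5 below it, and 0 passed the adjusted threshold at any age.

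Between null and wild-type ovaries, no member passed the test at any age. At E13.5, 0 of 8 members tested were called, where 0.00606% of all genes were. At E18.5 it was 0 of 9 (background 4.99%), at PND8 0 of 9 (0.349%) and at 12wk 0 of 5 (0.0115%), by the quasi-likelihood test of edgeR with BH adjustment. DESeq2 also called 0 at each age. An unadjusted p under 0.05 was found for 1 member, Tdrd7 at PND8, while 3.49%, 22.1%, 15% and 9.63% of all genes had one at the 4 ages in order. The members' median log2 fold changes, from the earliest age to the latest, were 0.35, -0.37, 0.05 and 0.15, beside -0.01, -0.04, 0 and 0 over all genes tested.

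At E13.5 all 8 members tested had a higher mean in null ovaries, and 1 null library was the highest for each of them. The groups overlapped for all 8, while they did not for 3.84% of genes. The null replicates 1, 3 and 4 read 18.4, 95.7 and 46.3 CPM for Mov10l1, 14.3, 86.4 and 35.5 for Mael, 19.6, 54.9 and 35.4 for Piwil2, and 6.58, 16.3 and 8.18 for Tdrd1. Replicate 3 was the highest null library for 8 of 8 members, and replicate 1 the lowest for 6. The log2 fold changes were 1.10 for Mael (SE 0.51, edgeR quasi-likelihood test, BH-adjusted p 0.989) and 0.70 for Mov10l1 (SE 0.44, adjusted p 0.989). Without replicate 3 they were 0.25 and -0.01, and those of Piwil2, Tdrd1, Tdrd7, Tdrd9 and Tdrkh turned from 0.25, 0.39, 0.31, 0.21 and 0.13 to -0.15, -0.08, -0.42, -0.02 and -0.20. The 27 meiotic prophase genes summed to 1530 CPM in that library, 311.3 and 538.9 in the other null libraries and 405.4 to 452 in wild type. The 7 germ cell markers summed to 917.6, 407.2 and 941.4 CPM in null replicates 3, 1 and 4 and 530.2 to 786.6 in wild type, and all 7 were detected in each group. The part of either list in the difference was not tested.

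At E18.5 all 9 members tested had a lower mean in null ovaries, and every one of them overlapped wild type, where 14.5% of all genes did not. Piwil4 had the largest difference (log2 fold change -0.65, SE 0.41, edgeR quasi-likelihood test, BH-adjusted p 0.376), followed by Mael (-0.58, SE 0.33, adjusted p 0.334) and Tdrd9 (-0.57, SE 0.34, adjusted p 0.35). Mov10l1, Tdrd1 and Piwil1 were at -0.16, -0.20 and -0.50, and without single libraries they reached 0.14, 0.10 and 0.01. Meiotic prophase genes summed to 1002 to 1838 CPM in wild type and 704.2 to 1274 in null ovaries, and Ddx4 itself was at -0.62 (SE 0.19, adjusted p 0.0888). Their part in the lower means was not tested.

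At PND8 the groups did not overlap for Tdrd7, against 14.7% of all genes. Null libraries read 29.7, 29.5 and 29.5 CPM and wild-type libraries 27.6, 24.1, 23.1 and 24.8, so each null library was above each wild-type library by a small margin. The log2 fold change was 0.23 (SE 0.09, edgeR quasi-likelihood, unadjusted p 0.0317, BH-adjusted p 0.28). Tdrd6 was also higher in each null library, with 5, 9 and 7 counts against 0, 2, 1 and 1, but was too low to be tested. The other members overlapped, with log2 fold changes from -0.60 for Mael (SE 0.69) to 0.54 for Tdrd9 (SE 0.58). At 12wk Piwil2 read 2.05, 3.00 and 1.76 CPM in null and 1.57, 1.13, 1.78 and 1.46 CPM in wild type. With library sizes scaled over the 12wk samples alone these did not overlap, as for 9.69% of genes, and on the scale over all samples they did. Its log2 fold change was 0.59 (SE 0.30, adjusted p 0.581). Tdrd1 at 12wk was at -1.37 (SE 0.75, adjusted p 0.607), and at -0.48 without wild-type replicate 3. The 20 growing oocyte markers summed to 20.8 to 26.2 CPM in null and 36.0 to 226.3 CPM in wild-type libraries of that age, without overlap. All 17 of them that were tested had a lower mean in null ovaries, with a median log2 fold change of -2.76. Of the 20, 2 were at 0 in each null library. The highest wild-type sum was that of replicate 3, and the wild-type median was 67.4 CPM. Of the 17 markers tested 0 passed, and for 7 the groups did not overlap, against 9.69% of all genes. Their part in the differences at 12wk was not tested.

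**Figure D4:**
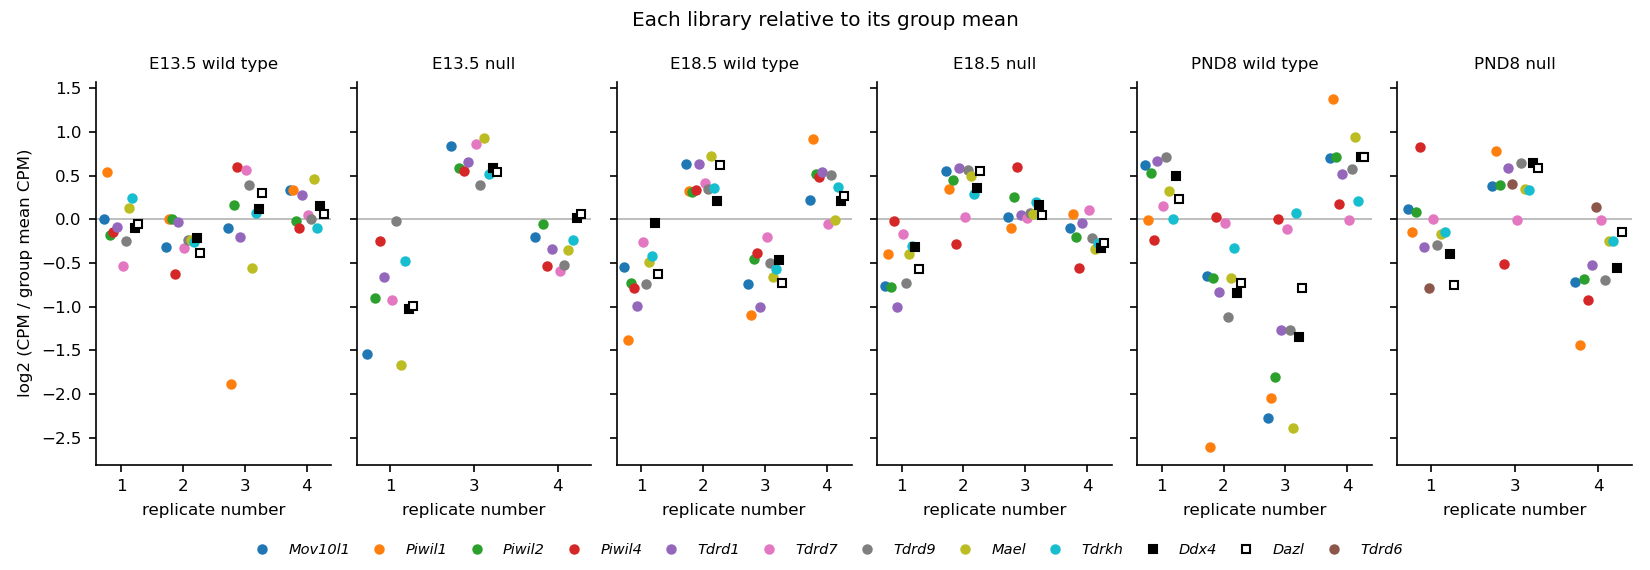
Each library's level relative to its group mean on a log2 scale (vertical axis) by replicate number, for the 10 genes where their group mean was above the level of 3 counts and no library was at 0, with Ddx4 and Dazl as squares. In wild type at E18.5, replicates 2 and 4 held the 2 highest values for 9 of 9 genes, and in null ovaries at E13.5 replicate 3 was highest for 8 of 8.

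Members were high in the same libraries in some groups and not in others. In wild type at E18.5 replicates 2 and 4 were the highest 2 libraries for 9 of 9 members above the floor, and for PND8 wild type replicates 1 and 4 were so for 6 of 8. In null ovaries replicate 2 was highest for 7 of 9 members at E18.5 and replicate 3 for 7 of 9 at PND8. No such pair stood out in wild type at E13.5, where 2 given libraries were the highest 2 for at most 3 of 8 members, or at 12wk, with at most 2 of 5. The germ cell gene Dazl was highest in the same 2 wild-type libraries as the members at E18.5 and PND8. It read 82.8, 196.6, 77.2 and 154.1 CPM in the E18.5 wild-type libraries and 3.30, 1.70, 1.63 and 4.61 in those of PND8. At PND8 the 20 growing oocyte markers summed to 1144, 383.1, 434.4 and 1342 CPM in wild type, where Mael read 10.9, 5.45, 1.65 and 16.7. The 12wk wild-type sums were 226.3 CPM for replicate 3 and 36.0 to 88.1 CPM for the rest, and Tdrd1, Tdrd9, Mael and Piwil1 were highest in that library. Piwil2 (1.785 CPM against 1.575 in replicate 1) and Tdrkh (1.785 against 1.773 in replicate 4) were also highest there. Piwil4 was lowest there, at 0.470 CPM, and Tdrd7 was highest in replicate 2. The spread differed between members, with highest-to-lowest ratios over the PND8 wild-type libraries of 1.19 for Tdrd7, 1.33 for Piwil4 and 1.45 for Tdrkh against 10.1 for Mael and 7.84 for Mov10l1. For Piwil1, at only 2 to 32 counts per library, the ratio was 15.85. Libraries shared RNA and depth across the genes, so these are descriptions without a test.

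**Figure D5:**
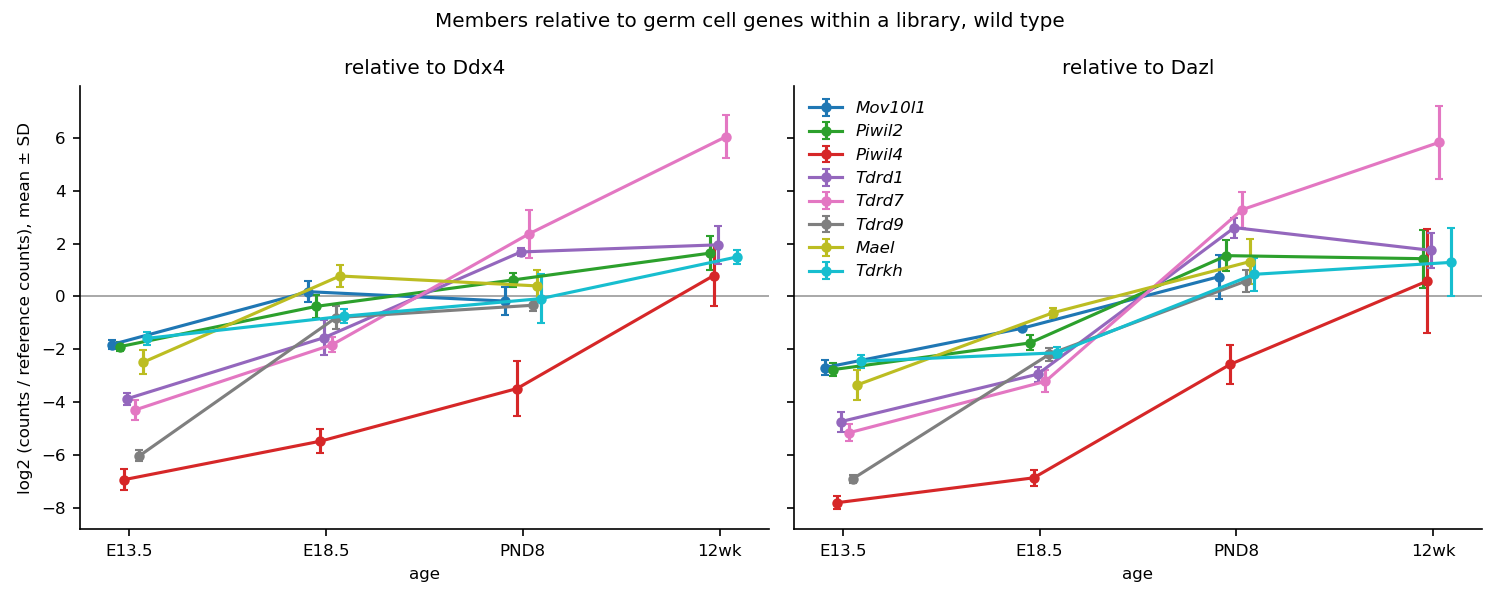
Mean log2 ratio of each member's counts to those of Ddx4 (left) or Dazl (right) in the same wild-type library, by age. Bars are the SD over 4 libraries. Groups with 3 counts or fewer of either gene in any library are left out, and Piwil1 and Tdrd6 are not drawn. Between E13.5 and E18.5 the ratio to Ddx4 went up without overlap for 8 of 8 members, as it did for 71.8% of all genes.

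Each member was also set against a germ cell gene of the same library. Ddx4, the germ line helicase that marks germ granules, fell in wild type from 112.1 ± 13.4 CPM (SD, n = 4) at E13.5 to 45.9 ± 9.41 at E18.5 and 5.71 ± 3.52 at PND8. The ratio of a member's counts to those of Ddx4 was higher at E18.5 than at E13.5 without overlap for 8 of 8 members in wild type and 7 of 8 in null ovaries, as it was for 71.8% and 85.8% of all genes with more than 3 counts in each library. The mean log2 ratio differed least for Tdrkh (0.84) and most for Tdrd9 (5.24), with Mael at 3.26 and Tdrd1 at 2.31. Relative to Dazl it was so for 7 of 8 in wild type and 6 of 8 in null ovaries, against 24.4% and 43.8% of all genes. From E18.5 to PND8 in wild type the result depended on the reference: relative to Dazl all 8 were higher without overlap, and relative to Ddx4 4 were higher and 4 overlapped. Of all genes 98.9% were higher relative to Dazl and 89.5% relative to Ddx4, so the former count is at the background and the latter below it. Mov10l1 and Mael were among those that overlapped relative to Ddx4, with differences of -0.36 and -0.37 relative to Ddx4 and 1.95 and 1.93 relative to Dazl. In null ovaries all 8 were higher relative to Dazl (97.3% of all genes, with 0.0775% lower), while relative to Ddx4 3 were higher (72.8% of all genes), 2 lower (1.68%) and 3 overlapped. The 2 that were lower were Mov10l1, by -1.10, and Mael, by -1.28. Mael read 0.80 to 1.03 at E18.5 and -0.78 to -0.18 at PND8 in those null libraries (log2 ratio to Ddx4). Whether this step differs between genotypes was not tested. Tdrd1 moved from -1.56 ± 0.67 to 1.68 ± 0.15 relative to Ddx4 (log2, SD, n = 4), with 4 libraries between 2.78 and 3.57 counts of Tdrd1 per count of Ddx4 at PND8. Between genotypes the ratios overlapped for all members at each age except at E18.5, where Tdrkh was higher in null ovaries relative to Ddx4 (0.48, as were 17.9% of all genes) and Mov10l1 relative to Dazl (0.35, 1.66% of all genes), 1 of 9 members each. Replicate numbers were taken to pair the genotypes at E18.5, because the deviations of same-numbered samples correlated at 0.101 to 0.284. The labels name no pairing. In a reading within pairs, chosen after the data were seen, some members had the higher Ddx4 ratio in the null library of every pair. They were Mov10l1 (by 0.22 to 0.68), Tdrd1 (0.23 to 0.84), Piwil2 (0.07 to 0.48) and Tdrkh (0.21 to 0.81). Those are 4 of 9 members, where 39.4% of all genes did so and Ddx4 itself had a log2 fold change of -0.62. Relative to Dazl it was so for 3 of 9, Mov10l1, Tdrd1 and Tdrkh, against 19.3% of all genes.

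The other genes of the pathway, a list of 24, moved in both directions. Between E13.5 and E18.5 in wild type 14 of 21 tested passed, 7 higher and 7 lower, where 34% of all genes did. Tex15, which acts with MIWI2 in transposon methylation, rose by 2.95 on the log2 scale (SE 0.26, edgeR quasi-likelihood test, BH-adjusted p 4.7e-05). Wdr77 and Prmt5, which together methylate arginines on PIWI proteins and on many other proteins, fell by 1.07 and 0.93, and Ddx4 fell by 1.3 (SE 0.17, adjusted p 0.000366). From E18.5 to PND8, 13 of 22 fell and 5 rose, near the 74.6% of all genes that were called, among them falls of 5.28 for Btbd18, 3.34 for Rnf17, 5.74 for Stk31, 5.58 for Asz1 and 3.10 for Ddx4. From PND8 to 12wk 9 of 21 fell and 1 rose, against 30.5% of all genes, with Ddx4 at -3.40, Prmt5 at -0.35, Stk31 at -3.30 and Mybl1 at -0.72. In null ovaries the counts were 11 of 21 (3 higher, 8 lower), 13 of 22 (3 higher, 10 lower) and 15 of 23 (1 higher, 14 lower), beside 30.2%, 77.4% and 29.1% of all genes. The middle count is below its background. Between genotypes 1 of 21 was called at E18.5, near the 4.99% of all genes called there. It was Prmt5, which was higher in null ovaries (128.1 ± 10.7 against 95.1 ± 6.14 CPM on the scale of that comparison, n = 4 each, log2 fold change 0.43, SE 0.10, adjusted p 0.0293).

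Likeness of course was measured for each member against 13750 genes with a symbol and a mean of at least 1 CPM, as the root mean square difference of log2(CPM + 1) after centring, over the 29 samples. Mov10l1 and Mael were each other's closest gene, at 0.42, while their own SDs over the samples were 2.34 and 2.34. Next to both came Syce1, a synaptonemal complex gene, at 0.54 and 0.69. Tdrkh was closest to Syce2 (0.32) and the Tudor gene Rnf17 (0.36), Piwil2 to Zcwpw1 (0.46) and Gpat2 (0.47), and Tdrd9 to the oocyte transcription factor genes Sohlh1 (0.51) and Lhx8 (0.62). Tdrd1, with an SD of 1.31, lay nearest to Gtsf1 (0.55) and Nptx2 (0.57), and Tdrd7 to Trappc8 (0.27) and Usp32 (0.28), which are expressed in many tissues. Piwil1 was nearest to Ropn1l, at 0.29 against its own SD of 0.55. For Piwil4 and Tdrd6 the nearest genes differed from them by 0.24 against an SD of 0.32 and 0.11 against 0.13, so at their low levels the measure separates little.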

How the data were processed

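The 29 libraries were counted per gene by the authors, and the deposited values are RSEM expected counts, not normalized, per the file headers; 31.4% of the values above 0 were not whole. Trim Galore, FastQC 0.11.5, STAR 2.5.2 and RSEM 1.3.0 are named in the submitters' processing notes, while the genome build and strand setting are not given in the sources used here. The deposited expected counts were rounded to whole numbers and tested with edgeR 4.0.16 (R 4.3.3), TMM scaling, a robust quasi-likelihood fit, filterByExpr at a minimum count of 10 and a minimum total of 15, and Benjamini-Hochberg adjustment over all genes tested at a threshold of 0.05. Each comparison used its own 2 groups, and the interaction used all 29 samples. The standard error is the size of the log2 fold change divided by the root of the F statistic. Levels are CPM with TMM over all samples. Per-kilobase levels use exon lengths of GENCODE M21 (GRCm38), from which gene positions were also taken, and 51633 of 51912 IDs had a symbol. The fit was tested on simulated counts with known changes. Sums, ratios and figures were made in Python 3.11.15 with pandas 2.3.3, scipy 1.17.1 and matplotlib 3.10.9.

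All 10 members were named, with up to 4 called genes of the pathway list with the smallest p, Ddx4, Dazl, Cdkn1b and the 2 genes most alike each member. The members and lists were chosen with earlier results of these data known. Alternatives were RLE size factors, no filter on low counts, DESeq2 1.42.0, a replicate block, all 8 groups in 1 fit, leaving out each replicate, and unscaled library totals. Replicate numbers come from the labels, which do not say what they share. The deviations of same-numbered samples correlated above 0.1 in every pair for the genotypes at E18.5 (0.101 to 0.284) and for null E18.5 against E13.5 (0.183 to 0.214), so the numbers were taken to pair the samples there. Same-numbered samples correlated best with each other in 3 of 4 pairs for the former and 3 of 3 for the latter. The correlations are low, and the pairing is an assumption. None of 39 replicate pairs agreed within sampling noise (lowest chi-square per degree of freedom 13). Counting intervals cover counting error only.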

Additional observations from a re-analysis of the deposited data

Results flagged for a closer look

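A single library stood apart in 3 of 47 groups of 4 values, where chance alone marks about 1 in 20. Tdrd1 read 5.70 CPM in wild-type replicate 3 of 12wk, against 1.14 to 1.37 CPM in the other 3 libraries. Mael read 0.313 CPM in the same library, from 10 counts, against 0 to 0.0311 CPM in the others. The growing oocyte markers summed to 226.3 CPM there and to 36.0 to 88.1 CPM in the others, and their part in both values was not tested. Tdrd6 read 0.354 CPM in wild-type replicate 4 of E13.5, from 8 counts, where the other 3 libraries held 0.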

How the results depend on the processing

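The number of members called did not change by more than 1.5 times under any alternative run. Leaving out a library in turn gave 4 to 6, 7 to 8 and 6 to 8 calls for the 3 wild-type steps and 2 to 3, 7 to 8 and 5 to 6 for the null steps, and 0 for each genotype comparison and the interaction. For the interaction null libraries were left out (13 fits), and leaving out wild-type libraries there was not run. With the replicate block, 4, 8 and 6 members were called in wild type and 3, 8 and 6 in null ovaries, and 0 between genotypes at each age. The block ended the calls of Tdrd1 from E13.5 to E18.5 (1.00, adjusted p 0.0515) and of Tdrd7 from PND8 to 12wk (0.41, adjusted p 0.0567) in wild type, and added Tdrd1 from E18.5 to PND8 in null ovaries (0.79, adjusted p 0.0286). In those comparisons the numbers were not found to pair the samples. Where they were taken to pair them, the block changed Tdrkh before birth in null ovaries and no other call. With all 8 groups in 1 fit, Tdrd1 from E18.5 to PND8 in wild type turned to 0.02 (adjusted p 0.971), and its rise before birth was 1.21 (adjusted p 0.075). The cause was not tested.

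Changes of sign when 1 library was left out touched uncalled values only, all log2 fold changes. Between genotypes at E13.5 the ranges were -0.01 to 1.11 for Mov10l1, -0.15 to 0.54 for Piwil2, -0.08 to 0.63 for Tdrd1, -0.42 to 0.63 for Tdrd7, -0.02 to 0.43 for Tdrd9 and -0.20 to 0.32 for Tdrkh. At E18.5 they were -0.40 to 0.14 for Mov10l1, -0.45 to 0.10 for Tdrd1 and -0.77 to 0.01 for Piwil1. At PND8 they were -0.29 to 0.38 for Mov10l1, -0.36 to 0.29 for Piwil2, -0.74 to 0.25 for Piwil4 and -0.05 to 0.70 for Tdrd1. In wild type they were -0.02 to 0.46 for Piwil4 before birth and -0.35 to 0.27 for Tdrd1 across birth. In null ovaries before birth they were -0.50 to 0.63 for Mov10l1, -0.63 to 0.08 for Piwil2 and -0.11 to 1.17 for Mael.

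Over all genes, calls between genotypes moved further. They were 1 at E13.5, 71 with DESeq2 and 59 with all groups in 1 fit. At E18.5 they were 814, and 1636 with DESeq2. With 1 library left out they ran from 246 (null replicate 3) to 1372 (wild-type replicate 2), and moved by over 1.5 times for each library but wild-type replicate 1. At PND8 they were 62, then 258 with no filter, 715 with DESeq2, 8 with the block and 0 with all groups in 1 fit. With 1 library left out they ran from 0 (null replicate 3 or 4) to 147 (wild-type replicate 3), and moved by over 1.5 times for each library but null replicate 1. At 12wk they were 2, then 3 with RLE size factors, 12 with no filter, 293 with DESeq2, 10 with the block and 68 with all groups in 1 fit. For the interaction they were 164, 709 with DESeq2, and 72 and 82 without E18.5 null replicate 3 or 4. From PND8 to 12wk in null ovaries they were 5071, and 2642 without PND8 null replicate 3. The shares of all genes called move with these counts. Unscaled library totals moved 2 of 80 mean levels by more than 1 SD, both of Tdrd7 at PND8. Depth limits Tdrd6 at all ages, Piwil1 in null ovaries at E13.5 and Mov10l1, Mael, Tdrd9 and Piwil1 at 12wk, where levels lie near 3 counts per library. It also limits Piwil1 in single libraries of other groups. These held 2 and 3 counts (PND8 wild-type replicates 2 and 3), 3 counts (PND8 null replicate 4) and 1 count (E13.5 wild-type replicate 3).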

Other observations

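Genes of the microRNA and siRNA pathways, which use Argonaute proteins of the AGO type in all cells, took another course across birth than most members. From E18.5 to PND8, 7 of 9 rose in wild type and 7 of 9 rose in null ovaries (edgeR quasi-likelihood, Benjamini-Hochberg adjusted p under 0.05), where 37.6% and 38.9% of all genes rose. In wild type the log2 fold changes were 3.28 for Ago1 (SE 0.24), 2.10 for Ago2 (SE 0.18) and 1.97 for Ago3 (SE 0.16), which encode microRNA-binding proteins, 2.32 for the export factor gene Xpo5 (SE 0.10) and 1.67 for Dicer1 (SE 0.19). Tarbp2 and Ago4 did not pass, at 0.03 and -0.13. These genes were named after their values were seen.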
